A study of Mus musculus with 8 samples.

Results

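The major histocompatibility complex (MHC) of the mouse, called H2, carried 401 of the 64772 Rad21 sites mapped in CH12F3 cells. They are all peaks of the 8 deposited lists that overlap a window of 3.6 Mb on chromosome 17 (mm9), whose first site starts at 33866266 and whose last ends at 37387905. Peaks sharing at least 1 bp were joined, and each site was placed by its midpoint. The window was split into stretches of 0.8, 0.8 and 2 Mb named after the class II, class III and class I genes, which held 147, 118 and 136 sites. The class II stretch ended between the sites at 34576470 to 34577615 and 34691956 to 34693032, and the class III stretch between those at 35399506 to 35400249 and 35401909 to 35402159. Membership rested on position and not on any measured value.

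CH12F3 cells are B lymphoma cells of the mouse, which class switch from IgM to IgA on stimulation. All libraries came from AID-/- cells that had received TGF-β, IL4 and anti-CD40 for 72 h (3 days), and chromatin was precipitated with an antibody against Rad21. The 4 genotypes, with 2 libraries each, differ at the immunoglobulin heavy chain locus (Igh) on another chromosome. PS_Ia carries a deletion between the γ3 and α switch regions that leaves part of each, made in αInv cells, and PS_Ca carries the same deletion on a background in which the non-coding Igh allele is deleted between VH and the CTCF-binding elements at its 3' end. FS_Ia lacks the stretch from Cγ3 to Cα with both switch regions at full length, in αInv cells, and FS_Ca lacks the stretch from Cγ3 to Iα with both switch regions at full length, in the cells with the deleted non-coding allele. Ia against Ca is called orientation here and PS against FS switch length. All Ia libraries come from αInv cells and all Ca libraries from cells with the deleted non-coding allele. Orientation therefore cannot be told apart from that background. The labels do not say whether the 2 libraries of a genotype are separate cultures or clones, so the p-values measure only the spread between these libraries, which may be technical. No allele named in the labels lies in the MHC, and the comparisons ask whether its Rad21 sites nevertheless differ between the genotypes.

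Rad21 is the kleisin subunit of cohesin, the ring that extrudes chromatin loops and is halted at CTCF-bound elements. B cells present antigen with MHC class II molecules, whose genes depend on the coactivator CIITA, and in human cells CTCF and cohesin are known to hold loops between class II genes and their elements. The RefSeq order of genes (GRCm38, used for names and neighbours only) runs through Daxx, a histone chaperone, Tapbp, which loads peptides on class I molecules, and the class I gene H2-K1. Next come H2-DMa and H2-DMb1, which edit the peptides of class II molecules, and Tap1 and Tap2, the peptide transporter. H2-Ab1, H2-Aa and H2-Eb1, which encode class II chains, come after them. The class III stretch follows with Notch4, a receptor, the complement genes C4b, Cfb and C2, the heat shock gene Hspa1b and the cytokine genes Ltb, Tnf and Lta. The class I stretch begins with H2-D1 and goes on through H2-Q and H2-T genes to Mog, Gabbr1 and H2-M3. No mm9 annotation was at hand, so no site was assigned to a gene, and the class names of the 3 stretches were not checked against gene positions. The class II stretch begins at the lower edge of the window, so it may also hold Daxx, Tapbp and H2-K1.

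The lists held 11288 to 47461 peaks. The expected background, the only sign of depth in them, was 0.223 to 0.862 fragments per position, and the weakest peak of a list had 3 to 5 fragments at its summit. A site that a short list lacks did not reach the threshold of that list, which does not show its absence. PS_Ia replicate 2 has the longest list and weighs most on the number of sites.

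The MHC was rich in Rad21 sites. PS_Ia replicates 1 and 2 had 107 and 332 peaks there, PS_Ca replicates 1 and 2 had 161 and 47, FS_Ia replicates 1 and 2 had 58 and 129, and FS_Ca replicates 1 and 2 had 71 and 196. In every library the window was denser in peaks than its own list as a whole: 13.1 to 92.2 peaks per Mb in the MHC against 4.28 to 18.0 peaks per Mb over all chromosomes, a ratio of 3.02 to 5.13. The rest of chromosome 17 held 3.98 to 21.2 peaks per Mb. Over the merged sites, the MHC had 111 sites per Mb against 29.0 on the rest of chromosome 17 and 24.6 over all chromosomes. The class II stretch was the densest with 184 sites per Mb, followed by the class III stretch with 148 and the class I stretch with 68.0.

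**Figure D1:**
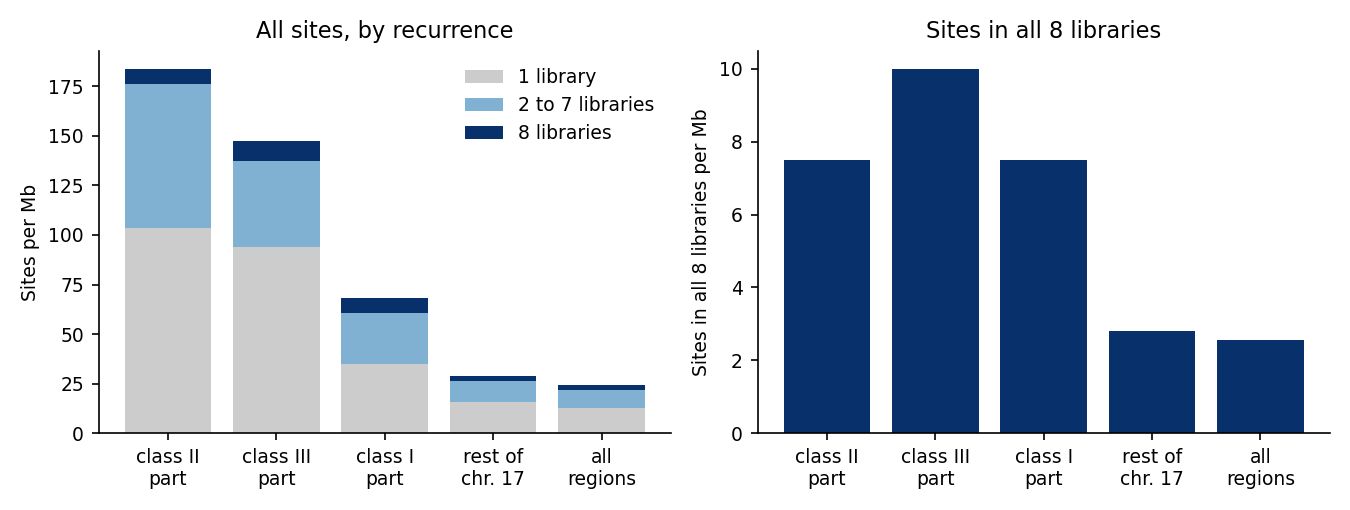
Sites per Mb in the class II, class III and class I stretches of the MHC, on the rest of chromosome 17 and over all chromosomes, with all sites stacked by the number of libraries holding them (left) and sites of all 8 libraries alone (right). The class II stretch leads for all sites with 184 per Mb, whereas the class III stretch leads for sites of all 8 libraries with 10.0 per Mb.

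Most of these sites were seen in few libraries. A single library held 228 sites (56.9%), against 52.6% over all regions. Of the 228, 150 (65.8%) came from PS_Ia replicate 2, against 50.5% over all regions. Without that library the MHC had 269 sites, 74.7 per Mb, against 19.2 per Mb over all chromosomes. Between 2 and 7 libraries held 144 sites. All 8 libraries held 29 sites (7.23%), against 10.4% of all regions and 9.65% of the rest of chromosome 17. These 29 sites were more closely packed than elsewhere, at 8.06 per Mb against 2.79 per Mb on the rest of chromosome 17 and 2.56 per Mb over all chromosomes.

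The share of sites that recurred in all 8 libraries differed along the locus. It was 6 of 147 sites (4.08%) in the class II stretch, 8 of 118 (6.78%) in the class III stretch and 15 of 136 (11%) in the class I stretch. The density of such sites did not follow the density of all sites. It was 7.5 per Mb in the class II and in the class I stretch and 10.0 per Mb in the class III stretch. In lists limited to the 11288 strongest peaks of each library, the 3 stretches held 33, 24 and 51 sites, of which 3, 6 and 6 were found in all 8 libraries.

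**Figure D2:**
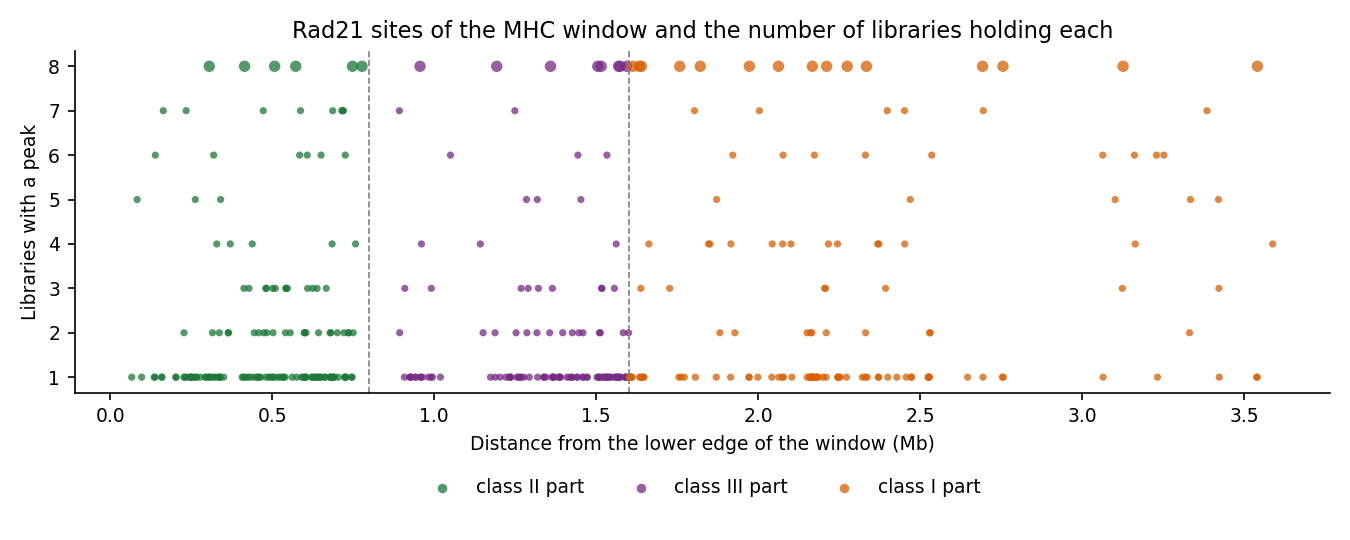
Each point is 1 of the 401 MHC sites, placed by its distance from the lower edge of the window in Mb (x) and by the number of libraries with a peak there (y), with dashed lines between the stretches. The 29 sites of all 8 libraries, drawn larger, crowd around the border of the class III and class I stretches and thin out in the upper part of the class I stretch.

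The libraries missing from a recurrent site were those with short lists. Of the 67 sites held by 4 to 7 libraries, PS_Ia replicates 1 and 2 lacked 20 and 3, PS_Ca replicates 1 and 2 lacked 5 and 54, FS_Ia replicates 1 and 2 lacked 43 and 15, and FS_Ca replicates 1 and 2 lacked 30 and 3. PS_Ca replicate 2, the shortest list, was the missing library at 9 of the 16 sites held by 7 libraries, and FS_Ia replicate 1, the next shortest, at 4. PS_Ia replicate 1, FS_Ia replicate 2 and FS_Ca replicate 1 were missing at 1 each. Without FS_Ia replicate 1, 10 instead of 6 class II sites were found in every remaining library. The best of the 16 by mean percentile rank within the lists (0 is the strongest peak of a list and 100 the weakest) was at 34270708 to 34273778 in the class II stretch, with 21.1 over the 7 libraries that held it.

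Spacing was measured between the midpoints of neighbouring sites. The 29 sites of all 8 libraries lay a median of 77.6 kb apart (quartiles 40.4 and 155 kb), against 121 kb on the rest of chromosome 17 and 130 kb over all chromosomes. The median was 92.8 kb in the class II stretch (5 spacings), 53.7 kb in the class III stretch (7 spacings) and 76.7 kb in the class I stretch (14 spacings). The shortest spacing was 4.40 kb, between the class III sites at 35367551 to 35370626 and 35372420 to 35374563. Of the 36 windows of 100 kb, 16 held no site of all 8 libraries and 2 held no site of any library. The window with the most sites, 40, ran from 35300000 to 35399999.

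**Figure D3:**
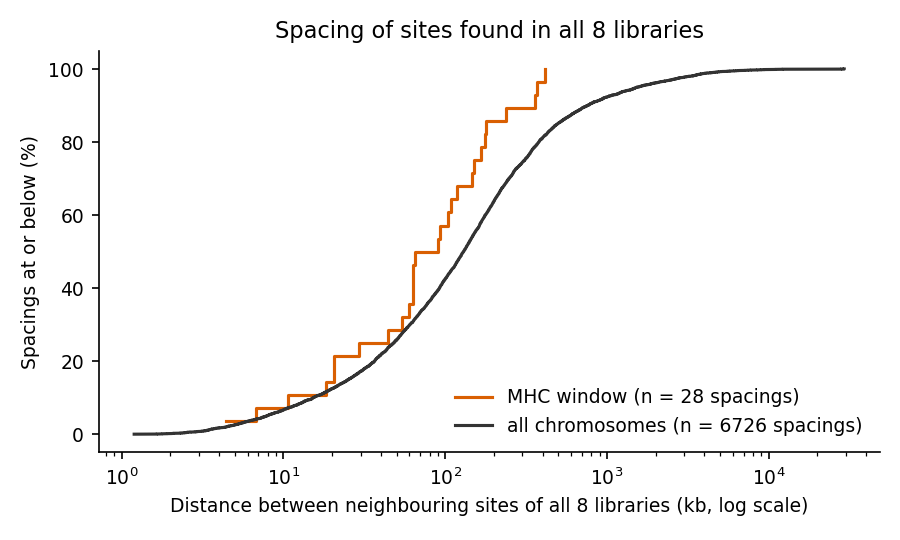
Cumulative share of spacings (y, %) by the distance between neighbouring sites of all 8 libraries (x, kb, log scale), for the MHC (28 spacings) and for all chromosomes (6726 spacings). The medians are 77.6 kb in the MHC and 130 kb over all chromosomes, and the longest spacing is 415 kb in the MHC.

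A cluster straddled the border of the class III and class I stretches. From 35302911 to 35440728 lay 8 of the 29 sites of all 8 libraries, 5 on the class III and 3 on the class I side, among 51 sites in all. The midpoints of the first and last were 135 kb apart. Their spacings ran from 4.40 to 53.7 kb with a median of 18.4 kb. Of the 6747 regions of all 8 libraries in the genome, 13 (0.193%) began a stretch of 150 kb that held 8 or more, the most was 14 and the median 2. The length of 150 kb was chosen after the positions were seen, so that this is a description. Of the 8 MHC sites with a mean percentile rank under 15, 5 lay in this cluster.

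The strongest site of the whole MHC was part of the cluster, on the class I side at 35410515 to 35414152. Its fold enrichment was 19.1 and 23.1 in PS_Ia replicates 1 and 2, 22.0 and 13.9 in PS_Ca replicates 1 and 2, 20.1 and 31.9 in FS_Ia replicates 1 and 2, and 15.1 and 24.8 in FS_Ca replicates 1 and 2. These folds are the authors' values, each relative to the background of its own list. The site was in the strongest 3.84% of every list, with a summit of 20 to 42 fragments, and was the first or joint first of the MHC in 6 of 8 libraries. It was the only one of the 29 with a percentile under 10 in all 8 lists (3.45%), against 4.34% of all regions found in all 8. Its neighbour at 35438346 to 35440728 ranked at percentiles 11.2 and 0.570 in PS_Ia replicates 1 and 2, 1.37 and 19.1 in PS_Ca replicates 1 and 2, 6.42 and 1.92 in FS_Ia replicates 1 and 2, and 3.84 and 0.805 in FS_Ca replicates 1 and 2.

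On the class III side of the cluster, the site at 35372420 to 35374563 was the next by mean percentile within the lists, at 4.98. Ranked over the 6747 regions of all 8 libraries alone, 35438346 to 35440728 came next, with a mean percentile of 12.6 against 13.2 for 35372420 to 35374563. The folds of 35372420 to 35374563 were 15.4 and 19.3 in PS_Ia replicates 1 and 2, 17.5 and 13.2 in PS_Ca replicates 1 and 2, 12.4 and 40.9 in FS_Ia replicates 1 and 2, and 11.5 and 20.8 in FS_Ca replicates 1 and 2. The background of FS_Ia replicate 2, 0.223 fragments, was the lowest of the 8, so that its fold is not on the scale of the others. By percentile within its own list the site was at 0.237 in FS_Ia replicate 2 and at 10.3 in FS_Ia replicate 1. The close pair to it at 35367551 to 35370626 had folds of 6.93 to 20.3, and the site at 35314513 to 35316317 had 7.74 to 21.3. The widest site of the MHC was also here, at 35390885 to 35397062, where peaks of different libraries joined to 6178 bp. Its folds were 5.67 to 19.3. Outside the cluster, the site at 36132943 to 36135058 was the third class I site of all 8 libraries by mean percentile. It had folds of 7.56 to 22.6 and led the MHC in PS_Ca replicate 1.

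In the class II stretch 1 site stood out, at 34546450 to 34549416. Its folds were 17.3 and 17.2 in PS_Ia replicates 1 and 2, 20.3 and 10.7 in PS_Ca replicates 1 and 2, 13.9 and 15.5 in FS_Ia replicates 1 and 2, and 14.3 and 19.1 in FS_Ca replicates 1 and 2. It ranked between percentiles 1.51 and 11.7 in the 8 lists, and the genotypes overlapped. The next class II sites of all 8 libraries ranked lower, with mean percentiles of 15.6 and 24.9. The site at 34371599 to 34373738 had folds of 6.93 to 16.1, and the site at 34306021 to 34308828 had 4.91 to 17.7.

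**Figure D4:**
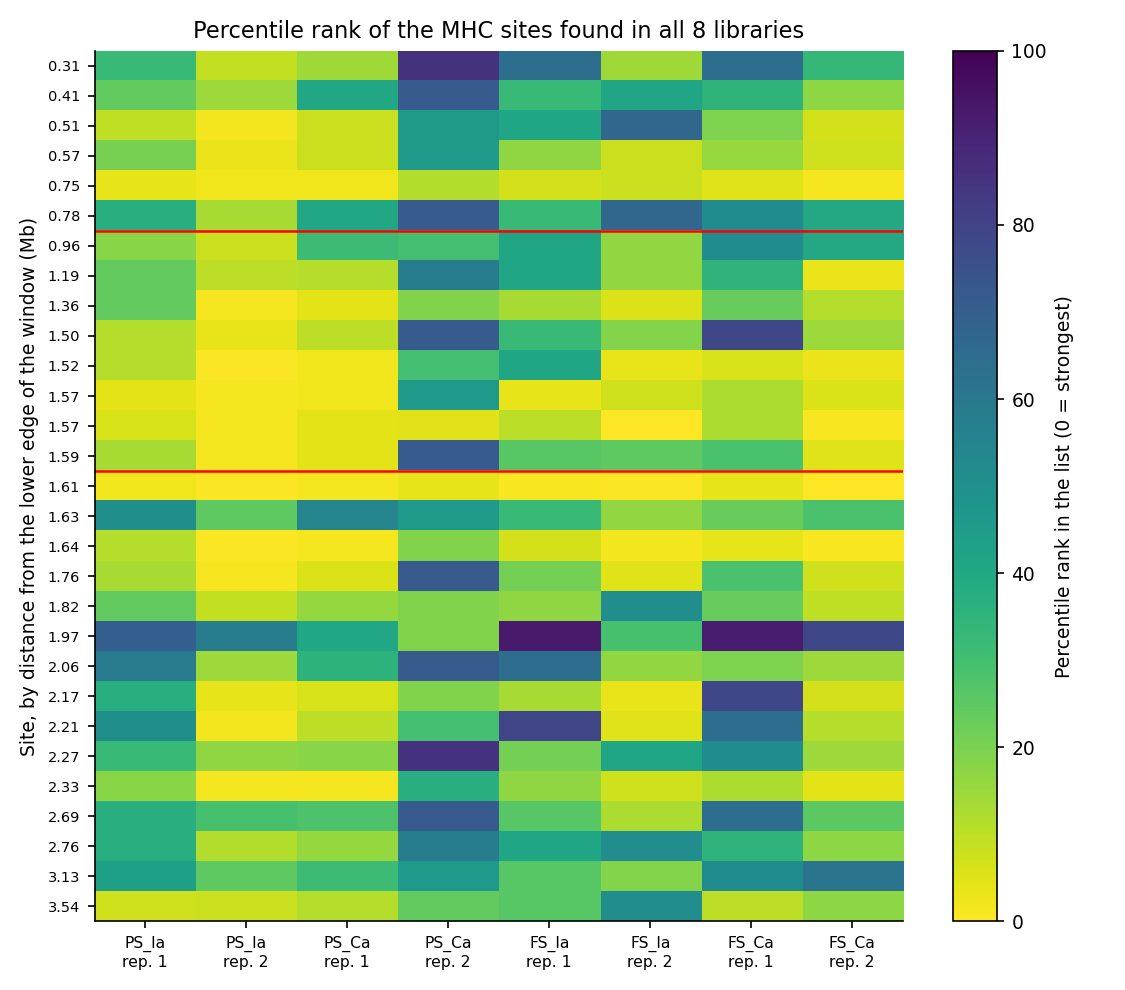
Percentile rank within each list (colour, 0 = strongest) of the 29 MHC sites found in all 8 libraries (rows, in order of distance from the lower edge of the window, red lines between the stretches) in the libraries of PS_Ia, PS_Ca, FS_Ia and FS_Ca (columns). Few rows are strong in every column, and PS_Ca replicate 2, the shortest list, is the weakest in more rows than any other column.

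At the other end of the class I stretch the sites of all 8 libraries lay further apart than in the rest of the MHC. The 3 longest stretches with no site of all 8 libraries were 415, 371 and 358 kb long and all lay there. Such lengths are not unusual in the genome. Over all chromosomes the upper quartile of the spacings between sites of all 8 libraries was 309 kb and the longest 29292 kb. The longest ran between the sites at 36925378 to 36926538 (folds 5.20 to 10.6) and 37339764 to 37341392 (folds 5.72 to 14.8), with 13 sites of fewer libraries between them. The second ran from the site at 36554352 to 36556126 (folds 5.72 to 11.3) to the one at 36925378, with 5 sites between, and the third from 36132943 to the site at 36491697 to 36492784 (folds 5.67 to 13.1), with 23 sites between. Class I genes include similar copies, and the sources used here do not say how reads mapping to several copies were treated. Whether this bears on the spacing of sites was not tested, and no site was assigned to a gene.

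At the lower edge the first site inside the window was 66.4 kb above the edge and the last one outside was 34.7 kb below it, each found in 1 library. At the upper edge the last site inside was 12.3 kb below the edge and the first one outside 45.7 kb above it, each found in 4 libraries. The nearest site of all 8 libraries beyond the upper edge was 2583 kb away, at 39979924 to 39985793. Below the lower edge it was 124 kb away.

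Rank was next described by stretch. The median percentile of all MHC peaks of a library was 41.1 to 71.4, and it was under 50 in 1 of 8 libraries, so that MHC peaks were not stronger than the lists at large. Class I peaks had the best median rank. Their median percentile was 50.1 and 44.4 in PS_Ia replicates 1 and 2, 46.4 and 46.2 in PS_Ca replicates 1 and 2, 41.1 and 41.1 in FS_Ia replicates 1 and 2, and 51.4 and 39.7 in FS_Ca replicates 1 and 2. The median percentile of class II peaks was 50.1 to 71.4. It was weaker than that of class I peaks in 6 of 8 libraries and equal in 2, since low folds come in few steps and many peaks tie. Class III peaks, at 41.1 to 57.9, ranked behind class I peaks in 5 libraries and equal in 3.

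Among the sites of all 8 libraries the order was another one. Here each library was ranked over the same 6747 regions, so that lists of different length were ranked over equal numbers. The set of regions still depends on list length, with 4428 regions of all 8 libraries in lists of equal length. The median of the mean percentile was 37.0 for the 8 class III sites, 54.0 for the 15 class I sites and 59.4 for the 6 class II sites. It was 51.9 over the 29 sites, against 51.5 over all 6747 regions. The stretches overlapped widely, with site means of 13.2 to 65.2 in class III, 4.53 to 85.9 in class I and 14.0 to 81.5 in class II. Ranked within the whole lists instead, the medians were 17.2 for class III, 31.4 for class I and 29.7 for class II sites. The order of class I and class II sites thus depended on the ranking. Among the 6747 regions, a site's percentile varied between libraries with a median SD of 19.0 in the MHC and 18.6 over all regions (n = 8 libraries). The most variable was the class I site at 36010116 to 36011898, with an SD of 32.5 and folds of 5.42 to 18.8. Over the 29 sites, Spearman's rho between 2 libraries was 0.444 to 0.740 within a genotype (4 pairs) and 0.294 to 0.907 between genotypes (24 pairs), as a description of libraries that share the same sites.

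Summit positions differed little between lists. At 27 of the 29 sites the 8 summits lay within 500 bp of each other, with a median range of 280 bp, against 258 bp over all regions of all 8 libraries. The 2 others were 34306021 to 34308828, where the summits spanned 1430 bp, and 35302911 to 35306462, where they spanned 2640 bp.

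The share of a list that fell in the MHC varied between libraries, over the widest range in the class II stretch. Per 10000 peaks of a list, the class II stretch held 16.5 and 28.2 peaks in PS_Ia replicates 1 and 2, 17.8 and 13.3 in PS_Ca replicates 1 and 2, 10.1 and 16.1 in FS_Ia replicates 1 and 2, and 10.5 and 23.1 in FS_Ca replicates 1 and 2. The class III stretch held 9.30 to 20.0 peaks per 10000 and the class I stretch, where the range was narrowest relative to the level, 16.8 to 23.8. The names of the peaks carry 3 prefixes that split the libraries into all 4 FS libraries, both PS replicate 1 libraries and both PS replicate 2 libraries. The longest list of a set had the highest share in 3 of 3 sets for the class II and for the class I stretch, and in 2 of 3 sets for the class III stretch and for the whole MHC. When every list was limited to its 11288 strongest peaks, the class II stretch held 13 to 21 peaks, the class III stretch 11 to 21 and the class I stretch 19 to 36.

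**Figure D5:**
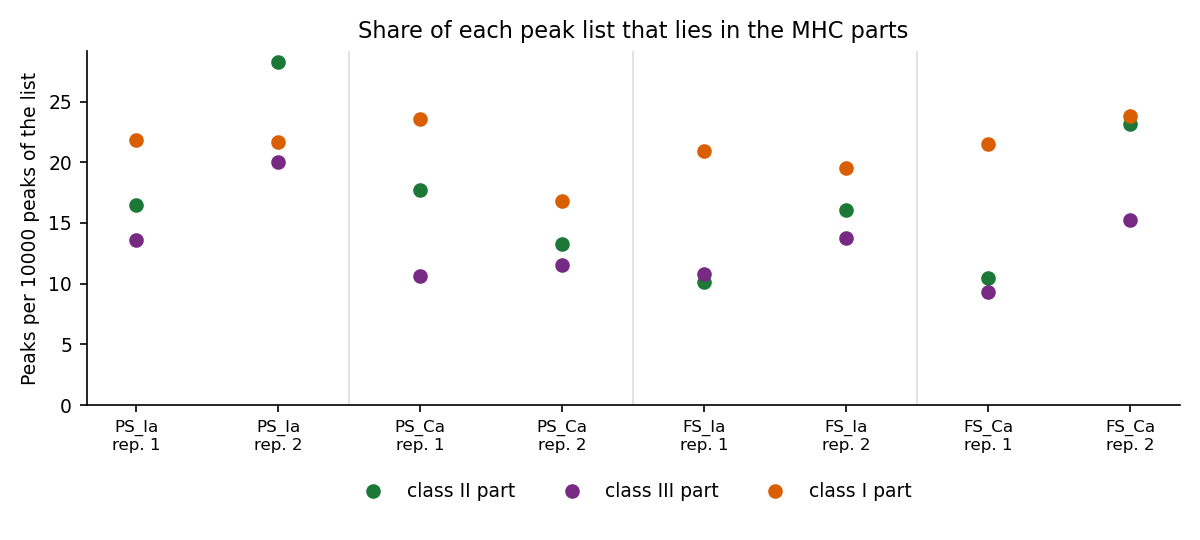
Peaks per 10000 peaks of the list (y) in the class II, class III and class I stretches for each library of PS_Ia, PS_Ca, FS_Ia and FS_Ca (x). Class I values stay between 16.8 and 23.8, whereas class II values run from 10.1 to 28.2, and replicates of a genotype differ as much as genotypes do.

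The number of MHC peaks differed between orientations by less than the spread between libraries. Per 10000 peaks, those of the MHC numbered 53.3 ± 11.9 in libraries of Ia lines and 49.2 ± 9.92 in libraries of Ca lines (SD, n = 4 each). The difference was 4.05 (two-sided exact permutation test, p = 0.6; adjusted p = 0.943 over 8 tests). Within the peak-name sets, Ia minus Ca was 28.3 in PS replicate 2, 0.0215 in PS replicate 1 and -6.07 in FS, and without PS_Ia replicate 2 the difference was -1.51. The largest difference by stretch was in the class III stretch, with 14.6 ± 3.88 peaks in Ia libraries against 11.7 ± 2.53 in Ca libraries (SD, n = 4 each; exact permutation p = 0.286, adjusted p = 0.943). That difference of 2.89 was 1.07 without PS_Ia replicate 2 and 0.443 in lists of equal length, where the class II (1.77) and class I (-1.77) stretches differed more. The class II stretch differed by 1.57 peaks (exact permutation p = 0.743) and the class I stretch by -0.411 (exact permutation p = 0.943).

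PS and FS libraries also differed by less than the spread between libraries. Per 10000 peaks, 53.9 ± 11.8 lay in the MHC in PS and 48.6 ± 9.70 in FS libraries (SD, n = 4 each). The difference was 5.24 (two-sided exact permutation test, p = 0.457; adjusted p = 0.943). It was -0.120 without PS_Ia replicate 2 and -3.54 in lists of equal length. The class II stretch had 18.9 ± 6.47 peaks in PS and 14.9 ± 6.11 in FS libraries (SD, n = 4 each; exact permutation p = 0.4), and the difference of 4.01 was 0.911 without PS_Ia replicate 2. The class III stretch differed by 1.67 peaks (exact permutation p = 0.6) and the class I stretch by -0.440 (exact permutation p = 0.886). The smallest p that 4 against 4 libraries allow is 0.0286. Since no peak-name set holds both PS and FS libraries, switch length cannot be told apart from set.

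No MHC site was specific to a level of either feature. Sites in all 4 Ia and no Ca library numbered 0 of 401 (0.0247% of all regions), and the other way round also 0 (0.0232% of all regions). All 4 PS and no FS library, and the reverse, also gave 0 sites each (0.0401% and 0.00772% of all regions). By Fisher's exact test on presence, 0 MHC sites passed after Benjamini-Hochberg adjustment over all 64772 regions (0% of all regions for either feature), and 0 had an unadjusted p under 0.05. With 4 against 4 libraries the smallest p of this test is 0.0286, which is too large to pass that adjustment. The test could thus not call any site, and no conclusion is drawn from it. The smallest p in the MHC was 0.143 (Fisher's exact test, adjusted p = 1) for both features. For orientation it came from the class I site at 36901205 to 36901729, named after its values were seen, which all 4 Ia libraries and PS_Ca replicate 1 held. Its folds were 6.78 to 10.6. For switch length it came from 34346364 to 34347072 in the class II and 35121163 to 35121845 in the class III stretch, each found in 3 PS and no FS libraries. PS_Ca replicate 2 was the missing PS library at both.

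The strength of the 29 sites of all 8 libraries was compared by rank. Each library's 6747 shared regions were ranked by fold, the ranks were turned into normal scores, and limma was fitted over all of them. No MHC site passed an adjusted p of 0.05 for orientation, for switch length or for their interaction (0 of 29 each), and neither did any other region (0% called in each contrast). At an unadjusted p under 0.05 there were 0, 0 and 3 of the 29 MHC sites in the 3 contrasts, against 4.30%, 5.22% and 4.61% of all regions. The differences at the 29 sites ran from -0.389 to 0.930 normal scores for Ia minus Ca and from -0.928 to 0.824 for PS minus FS, with SEs of 0.387 to 0.593. For the interaction they ran from -2.46 to 2.25, with SEs of 0.774 to 1.19. Differences of this size are thus not resolved by 2 libraries per genotype.

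Each contrast had a leading site, and for orientation and for switch length the 2 levels overlapped there. For orientation it was the class III site at 35302911 to 35306462, with a difference of 0.93 normal scores, higher in Ia (SE 0.448; limma, adjusted p = 1). Its percentiles among the 6747 regions were 30.03 and 21.2 in PS_Ia replicates 1 and 2, against 42.9 and 81.8 in PS_Ca replicates 1 and 2, and 56.8 and 56.0 in FS_Ia replicates 1 and 2, against 96.3 and 58.2 in FS_Ca replicates 1 and 2. In each switch length both Ia libraries ranked better than both Ca libraries, but the 4 Ia and 4 Ca libraries overlapped. The summits of this site spanned 2640 bp, as given above, so the ranks may come from different peaks. For switch length it was the class I site at 35432109 to 35433386, in the cluster, with -0.93 normal scores, lower in PS (SE 0.473; limma, adjusted p = 0.909). Its percentiles were 86.6, 91.4, 98.8 and 59.9 in PS_Ia replicates 1 and 2 and PS_Ca replicates 1 and 2, against 56.8, 50.8, 51.1 and 85.5 in FS_Ia replicates 1 and 2 and FS_Ca replicates 1 and 2. For the interaction it was the class II site at 34306021 to 34308828 (2.25 normal scores, SE 0.844; limma, adjusted p = 0.945). Ia ranked better than Ca in PS libraries, with percentiles of 26.2 and 12.4 in PS_Ia against 34.5 and 59.9 in PS_Ca, and worse in FS libraries, with 67.1 and 95.2 in FS_Ia against 43.2 and 28.1 in FS_Ca. Its summits spanned 1430 bp, as given above.

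Single genotypes were compared by the sites found in both libraries of one and neither of the other, with no test, since 2 stand against 2. PS_Ia against PS_Ca gave 10 PS_Ia-only sites (2.49%; 1.75% of all regions) and 0 PS_Ca-only sites (0.571% of all regions). FS_Ia against FS_Ca gave 1 FS_Ia-only site (0.477% of all regions), which was 36901205 to 36901729, and 3 FS_Ca-only sites (1.78% of all regions). PS_Ia against FS_Ia gave 17 PS_Ia-only sites (4.24%, against 4.04% of all regions) and 0 FS_Ia-only sites (0.279% of all regions). PS_Ca against FS_Ca gave 0 PS_Ca-only sites (0.526% of all regions) and 3 FS_Ca-only sites (0.748%, against 0.692% of all regions). The 10 sites of PS_Ia and not PS_Ca were spread as 4, 3 and 3 over the class II, class III and class I stretches, and only 2 of them, at 34399710 to 34400506 and 36131173 to 36131725, were found in no other genotype, with folds of 3.76 to 4.93 and 4.30 to 4.31. Both were weak, with mean percentiles of 87.6 and 85.1.

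Of the sites found in both libraries of a genotype, 81 were in PS_Ia, 42 in PS_Ca, 47 in FS_Ia and 65 in FS_Ca. PS_Ia and PS_Ca shared 38, which is 46.9% of the PS_Ia and 90.5% of the PS_Ca sites, against 54.0% and 87.1% over all regions. FS_Ia and FS_Ca shared 44, or 93.6% of the FS_Ia and 67.7% of the FS_Ca sites, against 84.6% and 70.3% over all regions. PS_Ia and FS_Ia shared 42, or 51.9% of the PS_Ia and 89.4% of the FS_Ia sites, against 60.2% and 86.6% over all regions. PS_Ca and FS_Ca shared 38, or 90.5% of the PS_Ca and 58.5% of the FS_Ca sites, against 85.0% and 63.0% over all regions. In each pair, in the MHC as over all regions, most of the smaller set was found in the larger one.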

How the data were processed

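Chromatin of fixed cells was sonicated, precipitated with anti-Rad21 and tagmented with Tn5 on the beads, and libraries were read from both ends, per the labels' protocols. MACS2 2.2.7.1, Bowtie2 2.4.4, deepTools 3.5.1 and SAMtools 1.15.1 are named with build mm9 in the submitters' processing notes. The sources used here give neither their settings nor read filters, nor say whether a control library was used. The authors deposited 1 peak list per library. A deposited list holds a score, a fold over the expected background (a ratio), a −log10 p-value and a −log10 q-value per peak, and the offset of its summit. Folds are relative to each list's own background, so they are printed per library as a description, and libraries were compared by rank within a list. Summit heights and backgrounds were recovered from the equal steps of the deposited folds, with 1 background per list. All heights came out whole within 0.01, so the folds were taken as not corrected for background that varies along a chromosome.

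Percentile ranks use fold, with ties averaged. Chromosome lengths were taken as the end of the last peak. The rank test used limma 3.58.1 (R 4.3.3) with genotype means, the other tests Python 3.11.15 with scipy 1.17.1, all tested on simulated data. Sites were named by a rule: the 3 best-ranked sites of all 8 libraries in each stretch, the widest, the most variable, those beside the 3 longest gaps, those specific to a level, and the leading one of each rank contrast. Others are named as examples after their values were seen. The members, lists and tests were chosen with earlier results of these data known. A planned motif search needs an mm9 genome and was not made.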

Additional observations from a re-analysis of the deposited data

How the results depend on the processing

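No genotype result passed its test under any alternative run. In the rank test 0 MHC sites passed in the 3 contrasts with the −log10 q threshold of 5, with lists of equal length, with regions built from summits ± 100 bp, on the log2 scale, without each library in turn, or with the peak-name set as a term for orientation, and the smallest adjusted p at an MHC site was 0.578 to 1 (limma). Leaving out 1 library of a genotype assumes that the lone library varies like the others. Presence gave 0 passing sites under each setting, but the test on presence could not call a site there either. Without PS_Ca replicate 1, all 4 Ia and no remaining Ca libraries held 1 site. Without PS_Ca replicate 2, all remaining PS and no FS libraries held 2. Same-numbered libraries are not stated to be pairs, and their deviations correlated between -0.206 and 0.331. With replicate number as a block 0 sites passed, and the differences in MHC peaks per 10000 stayed 4.05 (Ia minus Ca, exact permutation p = 0.556) and 5.24 (PS minus FS, exact permutation p = 0.389).

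Several differences in peaks per 10000 turned sign. With the stricter threshold they were 1.39 (class I stretch, Ia minus Ca), -0.854 (class III stretch, PS minus FS) and 0.513 (class I stretch, PS minus FS). With lists of equal length they were -3.54 (MHC, PS minus FS) and -2.21 (class III stretch, PS minus FS). Leaving out each library in turn gave -1.51 to 8.34 (MHC, Ia minus Ca), -0.120 to 9.73 (MHC, PS minus FS), -1.93 to 4.11 (class II, Ia minus Ca), 0.911 to 6.74 (class II, PS minus FS), 1.07 to 4.13 (class III, Ia minus Ca), -0.354 to 2.77 (class III, PS minus FS), -1.94 to 0.374 (class I, Ia minus Ca) and -1.30 to 0.946 (class I, PS minus FS). The cause was not tested.

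The number of sites depends on the threshold. The MHC had 155 sites with the stricter threshold and 108 in lists of equal length, of which 15 each were found in all 8 libraries. Of these, 2 and 3 were class II and 7 and 6 class I sites. With the stricter threshold, all 8 libraries held 3.77% of the class II, 14.6% of the class III and 11.5% of the class I sites. Over all regions it was 14.4%. Without 1 library, 6 to 10 class II sites were found in every remaining library. What depth limits cannot be read from lists without read numbers: the shortest list, PS_Ca replicate 2, had a background of 0.587 fragments, whereas FS_Ia replicate 2, with the lowest background of 0.223, held 26157 peaks.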
